A study of Homo sapiens with 6 samples.

Results

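The genes described here are the 207 protein-coding genes of H460 cells whose canonical 3′ UTR holds at least 2 exact sites for the seed of siHKlincR1_2, the siRNA used against the long noncoding RNA HKlincR1. The line is an established one, from a human lung cancer of the non-small-cell kind. Polyadenylated RNA was sequenced in 3 libraries of cells transfected for 48 hours with 50 nM of a non-targeting siRNA (siNT) and in 3 libraries of the same cells transfected at the same dose and for the same time with siHKlincR1_2 (siHKlincR1). All siHKlincR1 libraries thus carried 1 siRNA, so that a response to the loss of HKlincR1 and a response to the sequence of this siRNA cannot be told apart in them, and siHKlincR1_1, a second siRNA named in the labels, was not analysed here. The labels call the libraries of each group biological replicates and do not say whether they came from separate cultures or days.

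A gene was taken when the UTR of its canonical GENCODE v44 transcript on GRCh37 was at least 30 nt long, when that UTR held 2 or more exact matches to guide positions 2 to 8, and when its mean over the 6 libraries was at least 0.5 RPKM (reads divided by the length of the gene model and by the depth of the library). Of the 57773 listed genes, 15451 reached that level, and 10762 of these were protein-coding genes with such a UTR, HKlincR1 not counted. They divided into 9126 genes with 0 sites, 1280 with 1 site, the 207 with 2 or more, and a small group of named genes and gene families that is not reported here. A further 86 genes had 2 or more sites and a mean under the limit. Apart from the genes left out by name, the rule used sequence and mean level, not the difference between siNT and siHKlincR1. It was, however, chosen with earlier results of these data known.

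A small interfering RNA acts after its guide strand is loaded into an Argonaute protein. A transcript that pairs with the whole guide is cut by AGO2, while a transcript that pairs with the seed alone, the bases near the 5′ end of the guide, can be repressed and degraded as a microRNA target is. Sites of microRNAs act mostly from the 3′ UTR, an adenosine opposite the first guide base and A- and U-rich surroundings are known to favour them, and sites a short distance apart can act together.

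The seed and the sites the results turn on are printed here 5′ to 3′, with the 7 bases of the seed or of its match in capitals. The intended target lies at chr4:6677040-6677058 on the plus strand, in the last exon of HKlincR1, and the guide is its reverse complement.
siHKlincR1_2 target: gaagtatactcGTGTGCTt
siHKlincR1_2 guide: aAGCACACgaguauacuuc
The next 2 windows hold the closest pairs of sites among genes that fell. That of ELOVL5 is at chr6:53132263-53132292 and that of DNER at chr2:230223006-230223034, both on the minus strand.
ELOVL5 pair: caataGTGTGCTgtcaaaGTGTGCTtagct
DNER pair: actGTGTGCTtctactagtGTGTGCTctt
For contrast, 3 pairs at similar distances belong to genes that did not pass the test. They lie at chrX:110470010-110470039 for PAK3, at chr19:56207613-56207642 for EPN1 and at chr3:136669295-136669323 for NCK1, all on the plus strand.
PAK3 pair: atgtGTGTGCTtgtgtgtgGTGTGCTttat
EPN1 pair: tctGTGTGCTgttttcctctGTGTGCTctt
NCK1 pair: tGTGTGCTagtaatatctattGTGTGCTc
The sites of RRAGA, at chr9:19050678-19050684 and chr9:19050704-19050710 on the plus strand, are shown because the first also pairs with the 2 guide bases after the seed.
RRAGA site 1: ttcataatgtcGTGTGCTt
RRAGA site 2: ggctttgaagtGTGTGCTg
The sites of LHFPL2, at chr5:77784223-77784229 and chr5:77782054-77782060 on the minus strand, are shown because both are followed by an A, the base that lies opposite guide position 1.
LHFPL2 site 1: ggggacaggatGTGTGCTa
LHFPL2 site 2: tctttaaacctGTGTGCTa
The sites of RUBCN, at chr3:197400618-197400624 and chr3:197400551-197400557 on the minus strand, lie in near-copies of 1 sequence.
RUBCN site 1: tgctgattttaGTGTGCTg
RUBCN site 2: tgctgattttgGTGTGCTg
BANP carries 4 identical windows, each starting 40 nt after the one before, with seed matches from chr16:88110657-88110663 to chr16:88110777-88110783 on the plus strand.
BANP sites 1 to 4: agccctttgctGTGTGCTc

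The libraries held 24980280 to 30521000 reads, of which 89.9% to 91.1% lay on listed genes. HKlincR1 itself, the targeted transcript, had 3.62, 3.47 and 3.83 RPKM with siNT and 0.563, 0.628 and 0.390 RPKM with siHKlincR1. Its mean was lower by 85.5% (log2 fold change -2.59, standard error 0.17, limma adjusted p = 0.00245), and its groups did not overlap. The keratins KRT8, KRT18 and KRT19 were expressed, whereas the epithelial surface markers EPCAM and CDH1 were at or near 0 RPKM in all libraries. Markers of blood, endothelial, muscle and nerve, and lung surfactant cells were near 0 as well. The summed level of 3 fibroblast markers was 14.3 to 16.6 RPKM with siNT and 17.9 to 21.7 RPKM with siHKlincR1, nearly all of it from the collagen gene COL3A1. COL1A1 of the same list went the other way, from 0.998 to 1.23 RPKM with siNT and from 0.419 to 0.773 RPKM with siHKlincR1. The mitochondrial share of reads on genes was 4.04% to 4.57% and 4.88% to 5.89%. The part of these shifts in the results was not tested.

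The 207 genes ran from -1.39 to 0.48 on the log2 scale of the fold change between siHKlincR1 and siNT. In a limma fit of log2(RPKM + 0.1) over all 15451 genes, calls were made at 2 thresholds, an adjusted p (Benjamini-Hochberg) under 0.05 and a change of more than 1.5 times. By that rule 10 of the 207 genes were lower with siHKlincR1 (4.83%), against 0.356% of all genes tested. None was higher, where 0.00647% of all genes tested were, or 1 gene. The count rested on all 6 libraries. Without 1 library it was 2 (without siNT replicate 1, siNT replicate 2 or siHKlincR1 replicate 1), 3 (without siNT replicate 3), 5 (without siHKlincR1 replicate 2) or 14 (without siHKlincR1 replicate 3), and ELOVL5 and DNER were called in each of these fits. Of all genes tested, the fits without 1 library called 0.0453%, 0.0453%, 0.0518%, 0.0777%, 0.116% and 2.03% lower, in the order just given. At an unadjusted p under 0.05, limma had 58 of the 207 lower (28%, against 9.19% of all genes) and 4 higher (1.93%, against 7.04%). With the replicate number as a block, 15 were lower (7.25%, against 0.809% of all genes) and again 0 were higher (0.511% of all genes). In bulk RNA, fewer cells that express a gene and less of its RNA per cell cannot be told apart.

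The shift was small for most of these genes. The median log2 fold change was -0.08 over the 207, with 139 of them (67.1%) below 0, and 0.00 over all genes tested. Genes with 1 site had a median of -0.08 too, and genes with 0 sites one of -0.01. The difference between 1 site and more lay in the tail, since the mean was -0.16 for 2 or more sites and -0.10 for 1 site, and 1.95% of the genes with 1 site were called lower. Every siHKlincR1 library was below every siNT library for 69 of the 207 genes (33.3%, against 11.9% of all genes tested), and above it for 13 (6.28%, against 10.1%). Against the siNT mean, the median over the 207 genes was -0.08, -0.09 and -0.11 in the siHKlincR1 libraries and between -0.02 and 0.02 in the siNT libraries, so that all 3 siHKlincR1 libraries showed the shift. No test was run on these medians, since genes are not replicates.

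**Figure D1:**
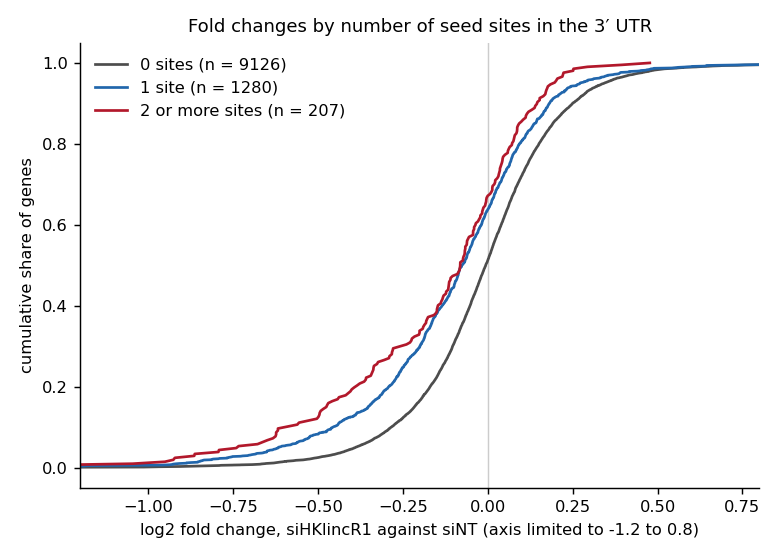
Cumulative share of genes (vertical axis) against the log2 fold change of siHKlincR1 over siNT (horizontal axis, limited as marked) for genes with 0, 1, and 2 or more seed sites in the 3′ UTR. The curves for 1 site and for 2 or more sites run together near their medians of -0.08 and separate among the larger falls, and both lie left of the curve for 0 sites.

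ELOVL5, an enzyme that elongates polyunsaturated fatty acids, had the largest fall of the 207. It had 41.4, 41.9 and 41.7 RPKM with siNT and 16.8, 14.98 and 15.8 RPKM with siHKlincR1. The 2 groups were far apart and each was tight. The means were 41.7 ± 0.242 and 15.9 ± 0.910 RPKM (SD, n = 3). This was a fall by 61.9%, or -1.39 on the log2 scale (standard error 0.07, limma adjusted p = 0.000776). Its sites start 1638 and 1651 nt after the stop codon, close to the end of a UTR of 1723 nt, and their starts are 13 nt apart, the shortest distance found among the 207.

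DNER, a transmembrane ligand of Notch receptors, came next and was also among the most strongly expressed genes of the set. Its levels were 80.8, 78.1 and 72.7 RPKM with siNT and 38.6, 38.0 and 35.4 RPKM with siHKlincR1. No siHKlincR1 library came near a siNT library. The means were 77.2 ± 4.12 and 37.3 ± 1.72 RPKM (SD, n = 3), lower by 51.6% or -1.05 on the log2 scale (standard error 0.07, limma adjusted p = 0.00245). Its sites start 225 and 241 nt after the stop codon, 16 nt apart, in a UTR of 911 nt. ELOVL5 and DNER were called lower in every alternative fit that kept the 7-base site.

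The other genes of the class of adhesion proteins, receptors and secreted proteins included LHFPL2, a tetraspan membrane protein. It had 3.67, 3.28 and 3.41 RPKM with siNT against 1.67, 2.09 and 1.58 RPKM with siHKlincR1, without overlap. On the log2 scale the difference was -0.93 (standard error 0.13, limma adjusted p = 0.0413), and the call was lost without the filter on low RPKM or without the trend. Of the fits without 1 library, the call of LHFPL2 held only without siHKlincR1 replicate 2 or replicate 3. VOPP1, a lysosomal membrane protein, was at 1.91, 1.64 and 2.11 RPKM with siNT and at 0.872, 0.877 and 1.25 RPKM with siHKlincR1. Its groups were separate as well, but its log2 fold change of -0.86 was not called over the 6 libraries without the replicate block (limma adjusted p = 0.120, and 0.0456 with the block). It was called too without siHKlincR1 replicate 3 (log2 fold change -1.02, limma adjusted p = 0.0284). Its class of 18 genes had a median of -0.19, the lowest of the 12 classes, with 14 below 0. Among the genes of the class that were not called, the Wnt receptor FZD1 was at -0.66 (limma adjusted p = 0.247) and the laminin chain LAMC3 at -0.16. FLRT2, an adhesion protein with the longest UTR of the set, was at 0.20.

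Vesicle and protein traffic held the most called genes, 3 of 25 (12%, against 4.83% of the 207 and 0.356% of all genes tested). Its share was close to those of the adhesion class (11.1%), the small GTPases (11.1%) and the ubiquitin class (9.52%). EFR3A, which anchors a phosphatidylinositol kinase at the plasma membrane, had 9.11, 9.66 and 8.40 RPKM with siNT and 4.67, 4.83 and 4.404 RPKM with siHKlincR1. On the log2 scale the difference was -0.95 (standard error 0.08, limma adjusted p = 0.00970). The call of EFR3A was lost without siNT replicate 1, siNT replicate 2 or siHKlincR1 replicate 1. RUBCN, an inhibitor of autophagy that binds the Beclin complex, had 2.67, 2.90 and 3.10 RPKM against 1.79, 1.77 and 1.73 RPKM (log2 fold change -0.68, limma adjusted p = 0.0479). BICD2, an adaptor that links cargo to the motor dynein, had 15.5, 15.4 and 18.1 RPKM against 10.1, 10.6 and 11.002 RPKM (log2 fold change -0.62, limma adjusted p = 0.0415). None of these 3 genes had overlapping groups. The calls of RUBCN and BICD2 were lost with a pseudocount of 1, without the filter on low RPKM, without the trend and in 5 fits without 1 library. CPLX2, a complexin that regulates membrane fusion, has 3 sites and had 4.76, 5.42 and 7.30 RPKM against 3.57, 3.26 and 4.28 RPKM. Its highest siHKlincR1 library was just under its lowest siNT library, and its log2 fold change of -0.62 was called with the block and not without it (limma adjusted p = 0.198, and 0.0461 with the block). Traffic genes had a median of -0.11, and 17 of its 25 genes were below 0. The Golgi clathrin adaptor GGA2 (-0.22), the endocytic ATPase EHD1 (-0.02) and the sorting nexin SNX2 (0.09) show its spread.

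Of 21 genes of ubiquitin and protein turnover, 2 were called lower. KLHL15, a substrate adaptor of cullin-3 ubiquitin ligases, had 4.96, 4.81 and 4.77 RPKM with siNT and 2.63, 2.54 and 2.37 RPKM with siHKlincR1. Its mean was lower by 48.1% (log2 fold change -0.92, standard error 0.08, limma adjusted p = 0.01003). UBXN2B, an adaptor of the unfolding ATPase p97, had 5.997, 6.92 and 7.23 RPKM against 3.87, 3.80 and 3.81 RPKM (log2 fold change -0.79, limma adjusted p = 0.0232). The call of UBXN2B was lost without the trend, and of the fits without 1 library it held only without siHKlincR1 replicate 3. That of KLHL15 held there only without siHKlincR1 replicate 2 or replicate 3. Both genes had separate groups, and the siHKlincR1 values of UBXN2B were nearly equal. The class had a median of -0.07, and relatives of KLHL15 were at -0.23 (KLHL11) and -0.07 (KLHL9), neither called. The ubiquitin ligases UBE3A and NEDD4L were at 0.08 and 0.06.

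Signalling genes gave 2 calls. RRAGA, a Rag GTPase that recruits the kinase complex mTORC1 to lysosomes, had 24.3, 21.2 and 24.4 RPKM with siNT and 13.5, 13.03 and 15.1 RPKM with siHKlincR1. Its groups were apart, and its log2 fold change was -0.74 (standard error 0.09, limma adjusted p = 0.0283). Its UTR, with 424 nt the shortest of the set, holds sites 26 nt apart, and its coding sequence holds a further site. Without the filter on low RPKM or without the trend it was not called. Of the fits without 1 library, only that without siHKlincR1 replicate 3 called RRAGA. DSTYK, a dual-specificity kinase, had 11.2, 11.3 and 10.3 RPKM against 7.17, 7.44 and 6.69 RPKM, without overlap (log2 fold change -0.62, limma adjusted p = 0.0283). Its call was lost with a pseudocount of 1, without the trend and in every fit without 1 library. The 9 small GTPases and regulators had a median of -0.12. RAB1A, a GTPase of transport from the endoplasmic reticulum to the Golgi, had 56.8, 56.8 and 59.4 RPKM against 39.9, 40.5 and 44.3 RPKM. It passed the adjusted p (0.0435 by limma) and missed the fold threshold with a log2 fold change of -0.47. It was the 1 gene that the fold threshold removed, since 11 of the 207 passed the adjusted p alone downwards (5.31%, against 0.44% of all genes tested) and 0 upwards (against 0.0129%). The 17 kinases, phosphatases and adaptors had a median of 0.00, with the death receptor kinase RIPK1 at -0.40 and the tyrosine kinase SRC at 0.07.

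**Figure D2:**
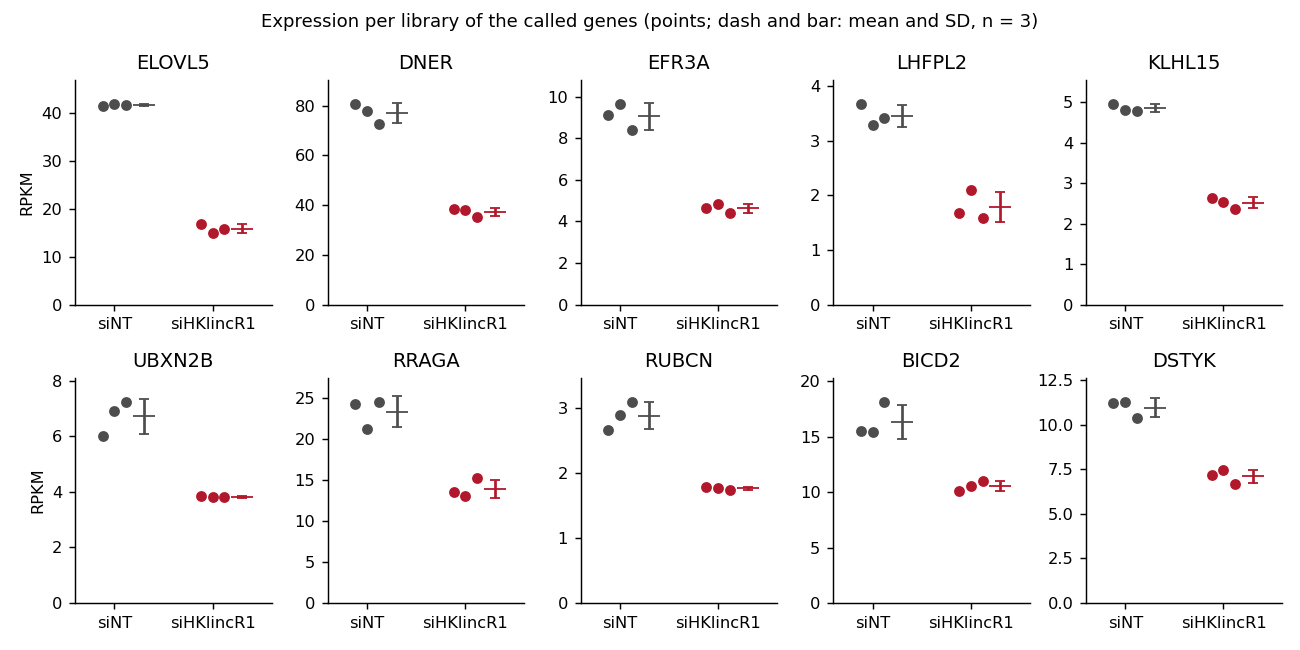
RPKM in each library (vertical axes, from 0) of the 10 genes with repeated seed sites that were called lower. Points are libraries, dashes and bars the mean and SD of 3 libraries, and in each panel all siHKlincR1 points lie below all siNT points, from ELOVL5 (41.7 to 15.9 RPKM on average) to DSTYK (10.9 to 7.10 RPKM).

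Metabolism and mitochondria held 21 genes with a median of -0.08, with ELOVL5 the 1 call. TXNRD1, the cytosolic thioredoxin reductase and the most strongly expressed gene of the set, had 350, 337 and 265 RPKM with siNT and 222, 227 and 166 RPKM with siHKlincR1. Replicate 3 was the lowest library of each group, and its log2 fold change of -0.63 was called with the block and not without it (limma adjusted p = 0.167, and 0.0138 with the block). CYP1B1, a cytochrome P450, had 65.7, 66.4 and 65.2 RPKM against 49.3, 50.8 and 53.8 RPKM, again with separate groups. Its log2 fold change of -0.36 stayed under the fold threshold (limma adjusted p = 0.0801, and 0.0441 with the block).

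In the limma fit of all 6 libraries without the block, 0 genes of transcription, RNA processing, cytoskeleton, membrane transport or DNA repair were called. Other fits without the block called some of them, namely RPRD1B, GTF2A1 and CEP43 with voom on the reads, RPRD1B with a filter at a mean of 1 RPKM, and GTF2A1 and TENT5A without siHKlincR1 replicate 3. The 30 genes of transcription and chromatin had a median of -0.07, and 2 were called with the block. RPRD1B, which binds the tail of RNA polymerase II, has 3 sites and had 9.31, 9.34 and 8.73 RPKM with siNT and 6.09, 6.39 and 5.25 RPKM with siHKlincR1 (log2 fold change -0.62, limma adjusted p = 0.0505, and 0.0275 with the block). GTF2A1, a subunit of the general factor TFIIA, had 10.97, 11.7 and 9.41 RPKM against 6.68, 7.48 and 6.61 RPKM (log2 fold change -0.62, limma adjusted p = 0.0760, and 0.0282 with the block). Neither gene had overlapping groups. SREBF2, a transcription factor of sterol synthesis, was at -0.28 (limma adjusted p = 0.182). The 23 genes of RNA processing and translation had a median of -0.04. TENT5A, a cytoplasmic poly(A) polymerase, had the lowest value of this class, with 25.7, 25.9 and 31.5 RPKM against 12.7, 11.05 and 24.6 RPKM. Replicate 3 of siHKlincR1 was close to the siNT level, and its log2 fold change of -0.86 did not pass (limma adjusted p = 0.242, and 0.0639 with the block). HNRNPU, an abundant nuclear RNA-binding protein, was at 106, 112 and 115 RPKM against 110, 118 and 113 RPKM, with overlapping groups (log2 fold change 0.04, limma adjusted p = 0.791). The ribosome biogenesis factor WDR43 overlapped as well (0.09, limma adjusted p = 0.577).

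Medians of the remaining classes were -0.16 for 12 genes of cytoskeleton and cell division, -0.10 for 11 of membrane transport and channels, -0.06 for 5 of DNA repair and replication, and 0.01 for 15 of other or unknown role. CEP43, a centrosomal protein at about 1 RPKM, was the lowest of the cytoskeletal genes at -0.73 (limma adjusted p = 0.142), and the actin polymerase ENAH was at 0.06. In traffic, TOMM20, a receptor of mitochondrial protein import, had 85.4, 85.0 and 79.5 RPKM against 67.1, 69.2 and 63.4 RPKM, without overlap. On the log2 scale the difference was -0.32 (limma adjusted p = 0.111, and 0.0432 with the block). It was 1 of 26 genes past the adjusted p alone downwards when the block was used (12.6%, against 1.72% of all genes tested). Upwards there was 1 (0.483%, against 1.2% of all genes), FAM241A, a gene of unknown role named for that count, with 5.93, 6.57 and 4.74 RPKM against 7.71, 8.44 and 6.53 RPKM. Its groups overlapped and its log2 fold change was 0.39 (limma adjusted p = 0.269, and 0.0478 with the block).

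**Figure D3:**
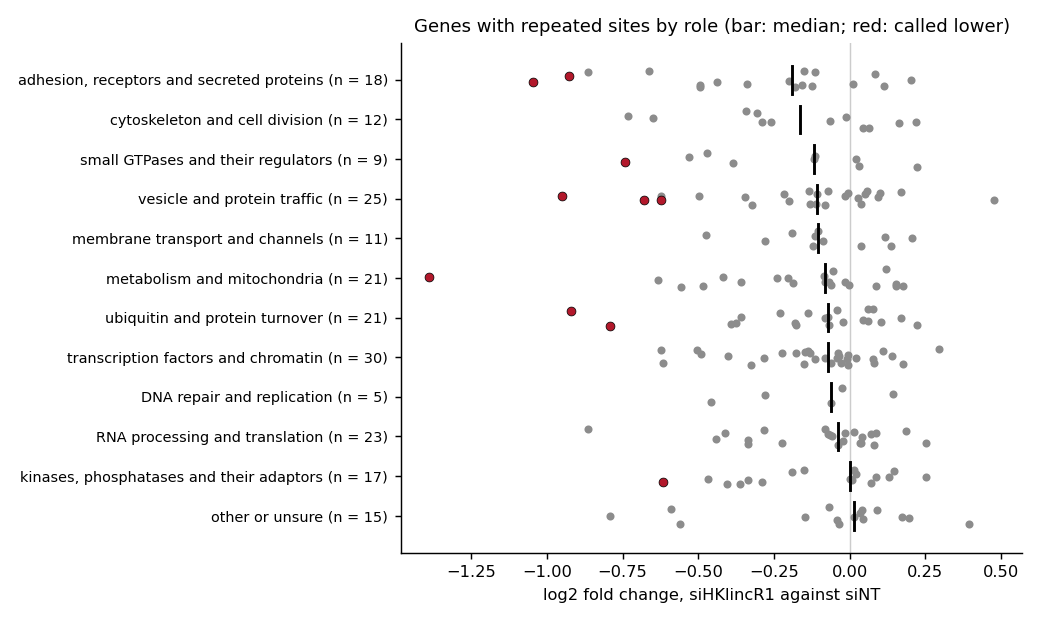
Log2 fold change (horizontal axis) of the 207 genes, one point per gene, by the role of the product (rows, with the number of genes). Black bars are medians, which run from -0.19 to 0.01, and red points are the 10 genes called lower, which fall in 6 of the 12 classes.

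The 207 UTRs hold 461 sites, with 172 genes carrying 2, 28 carrying 3, and 7 carrying 4 or more. The share called lower was 0.11% with 0 sites, 1.95% with 1 site and 5.81% with 2 sites, but it was not higher still with 3 or more. All 10 called genes of the 207 have 2 sites. Of the 35 genes with 3 or more sites 0 were called without the block and 2 with it, at a median of -0.12. Their UTRs were longer, with a median of 7060 nt against 4088.5 nt for genes with 2 sites, and the part of this was not tested. The mean was -0.16 both for these 35 genes and for the 172 with 2 sites.

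EPN1, an epsin of clathrin-mediated endocytosis, has 7 sites, the most of the set. It had 21.6, 22.3 and 24.9 RPKM with siNT and 20.7, 19.2 and 22.7 RPKM with siHKlincR1, overlapping groups with a log2 fold change of -0.13 (standard error 0.09, limma adjusted p = 0.469). AAK1, the kinase of the clathrin adaptor AP2, has 5 sites and was at 0.10. The activin receptor ACVR2B, also with 5, was at -0.20. Neither passed, with a limma adjusted p of 0.840 and 0.585, and both had about 1 RPKM. Among the genes with 4 sites, the RNA-binding protein RBMS2 was at -0.34 (limma adjusted p = 0.461), with 8.93, 11.99 and 6.22 RPKM in the siHKlincR1 libraries, a wider spread than in the siNT libraries. The endocytic scaffold ITSN1 was at 0.03 and the nuclear matrix protein BANP at -0.01. BANP had 1.39, 1.34 and 1.88 RPKM with siNT and 1.84, 1.22 and 1.54 RPKM with siHKlincR1, so that its run of 4 equally spaced sites came with overlapping groups. CRTAP, a partner of the collagen prolyl hydroxylase, has 3 sites. It had 53.9, 55.2 and 54.2 RPKM against 49.1, 48.2 and 49.5 RPKM, which did not overlap (log2 fold change -0.15, not passing, limma adjusted p = 0.265).

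Distances between neighbouring sites, measured from start to start, ran from 13 to 13168 nt. The nearest pair of a gene lay a median of 870 nt apart, within 100 nt in 29 genes and over 1000 nt apart in 95. Of the 16 genes with sites within 50 nt of each other, 3 were called lower (18.8%, against 0.356% of all genes tested). Their median was -0.16. The share was 2 of 60 at 51 to 500 nt (3.33%, median -0.07) and 5 of 131 beyond 500 nt (3.82%, median -0.08). With the block the counts were 4, 5 and 6 genes (25%, 8.33% and 4.58%, against 0.809% of all genes tested). Close spacing came with shorter UTRs, with medians of 2150.5, 3446 and 5222 nt in the same order, and the part of each was not tested. The called genes of the closest group were ELOVL5, DNER and RRAGA, joined with the block by CPLX2 at 48 nt.

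Close spacing was found without a fall too. PAK3, a p21-activated kinase with sites 15 nt apart, had 13.8, 13.9 and 13.2 RPKM with siNT and 13.8, 12.8 and 14.8 RPKM with siHKlincR1 (log2 fold change 0.01, standard error 0.08, limma adjusted p = 0.940). Its sites start 6339 nt and more after the stop codon. NCK1, an adaptor of tyrosine kinase signalling with sites 20 nt apart, had 8.07, 8.43 and 7.40 RPKM against 9.13, 9.85 and 7.62 RPKM (log2 fold change 0.15, limma adjusted p = 0.518). EPN1, with 17 nt, was described above at -0.13. All 3 genes had overlapping groups. In the other direction, LHFPL2 (2169 nt), UBXN2B (2667 nt) and EFR3A (781 nt) were called with sites far apart. Over the 207 genes Spearman's rho between the shortest distance and the log2 fold change was 0.11, and between the number of sites and the log2 fold change -0.01, given as descriptions across genes that share the same 6 libraries.

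**Figure D4:**
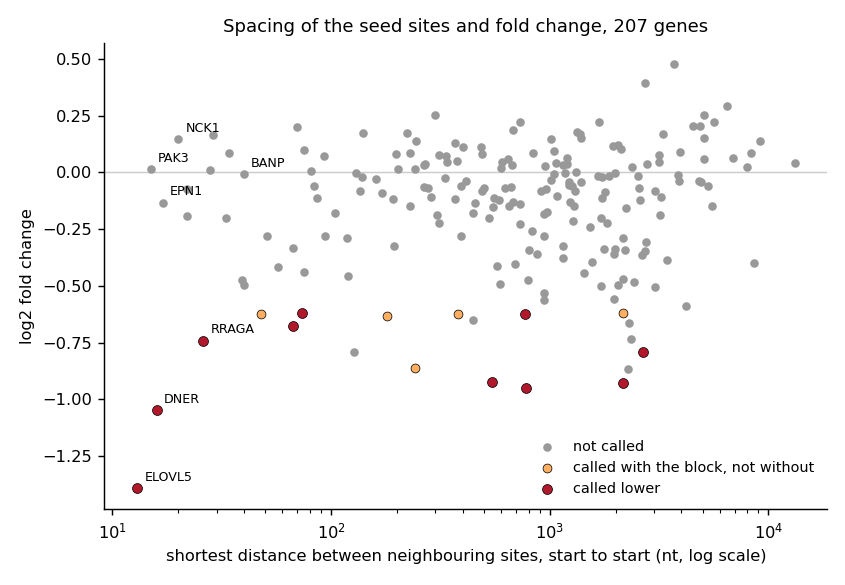
Log2 fold change (vertical axis) against the shortest distance between neighbouring seed sites (horizontal axis, log scale) for the 207 genes. Red points were called lower, and orange points were called with the replicate block and not without it. ELOVL5 (13 nt), DNER (16 nt) and RRAGA (26 nt) stand low on the left beside PAK3, EPN1 and NCK1 near 0, while the other called genes lie at 67 to 2667 nt.

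UTR length went with the size of the fall. The UTRs ran from 424 to 30931 nt with a median of 4211 nt, and Spearman's rho between length and log2 fold change was 0.22 across the 207 genes. In the 69 genes with the shortest UTRs, up to 3200 nt, the median was -0.12. Of them 4 were called (5.8%, against 0.356% of all genes tested). In the 69 of middle length the median was -0.08 with 6 called (8.7%). In the 69 with UTRs of 6682 nt or more it was -0.02 with 0 called, with or without the block. Genes with 1 site had medians of -0.10, -0.05 and -0.05 in the same ranges of length, with 2.9%, 0.915% and 0.84% called lower. Genes with 0 sites had medians of -0.01, 0.01 and 0.03, with 0.125%, 0.161% and 0% called lower. Where the second site lay within 2000 nt of the stop codon, 6 of 76 genes were called (7.89%, median -0.12), against 4 of 131 where it lay farther out (3.05%, median -0.07).

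A related value is the length of the gene model on which the reads were counted, which the unrounded RPKM values give. For 38 of the 207 genes that model, from Ensembl v74, was shorter than the GENCODE v44 UTR alone, so that the whole annotated UTR cannot have been part of it. Of these 38 genes 0 were called, with or without the block, and their median was -0.03. Of the other 169 genes 10 were called (5.92%), or 15 with the block, and the median was -0.09. Genes with 1 site, split in the same way, had a median of -0.02 with a model shorter than the UTR (0.926% called lower) and -0.08 otherwise (2.05%). For genes with 0 sites the medians were 0.02 with a model shorter than the UTR (0% called lower) and -0.01 otherwise (0.113%). EPN1 is among the 38, with a model of 3849 nt and a UTR of 14177 nt, and so is RBMS2 (3570 and 7060 nt). For ELOVL5 the model has 4223 nt, for DNER 3935 nt and for RRAGA 1648 nt, all longer than their UTRs. Which UTR H460 cells use was not measured, and the split was made after the fold changes had been seen.

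The 5 largest values upwards among genes whose groups did not overlap were small, and none passed the test. NOPCHAP1, a chaperone of small nucleolar ribonucleoproteins with 4 sites, had 9.01, 9.82 and 8.57 RPKM with siNT and 11.6, 11.05 and 10.0 RPKM with siHKlincR1 (log2 fold change 0.25, limma adjusted p = 0.254). Its counted model has 1424 nt and its annotated UTR 22929 nt. NUDT4, an inositol pyrophosphate phosphatase, has a near-identical copy with which it may share reads, so its value is uncertain. It was at 0.25 (limma adjusted p = 0.229). DCUN1D5, a factor of cullin neddylation, was at 0.22, the pyrophosphate transporter ANKH at 0.21 and FLRT2 at 0.20, with limma adjusted p-values from 0.268 to 0.323. NUDT4, DCUN1D5 and FLRT2 also had models shorter than their UTRs, and in these 3 genes and ANKH the nearest sites were 4530 to 5662 nt apart.

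**Figure D5:**
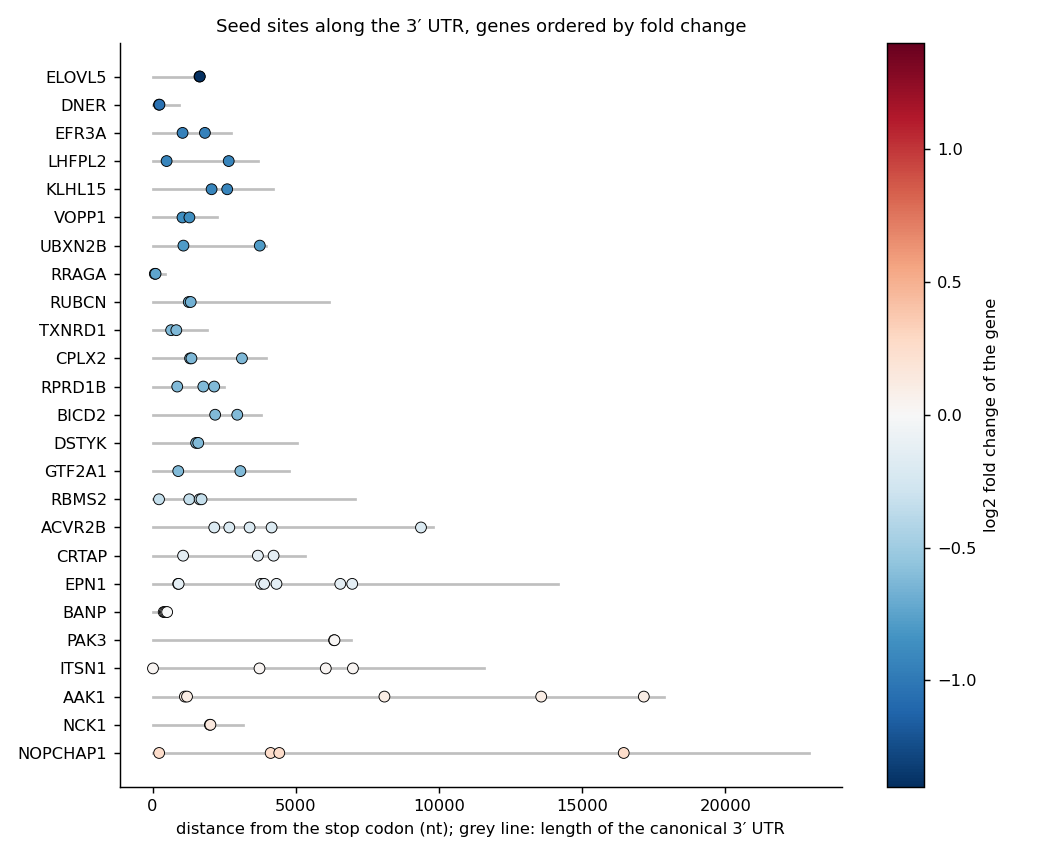
Seed sites (points) along the canonical 3′ UTR (grey lines) as distance from the stop codon in nt, for the genes called with or without the block, the genes with most sites and those with the closest sites, ordered by log2 fold change (colour). Genes at the top, from ELOVL5 at -1.39, have UTRs of at most 6151 nt, and the longest UTRs, of AAK1 and NOPCHAP1, stand near the bottom.

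The bases around the sites varied with the fall in some respects. An A opposite guide position 1 followed 79 of the 461 sites. The 11 genes with such an A at 2 or more sites had a median of -0.34, the 57 with it at 1 site -0.15, and the 139 with it at no site -0.07. In the same order 1, 4 and 5 genes were called lower (9.09%, 7.02% and 3.6%, against 0.356% of all genes tested). ELOVL5, DNER, RRAGA, RUBCN and BICD2 had no such A. LHFPL2, the mitochondrial fusion factor MIGA1 (-0.56) and the kinase adaptor MOB1A (-0.36) had it at both sites, while XPO4, a nuclear transport receptor, had it at both and was at 0.17. Genes whose 30-nt flanks averaged over 60% A and T had a median of -0.14, with 5 of 67 called (7.46%). The others had a median of -0.08, with 5 of 140 called (3.57%, against 0.356% of all genes tested). Pairing beyond the seed was rare. Of guide positions 9 to 19, a median of 3 paired, and positions 13 to 16 paired in full at 1 site only, in the proteasome chaperone PSMD9, which was at 0.05. A site lay in a run of alternating G and T of 10 nt or more in 5 genes, of which 0 were called.

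A further seed match in the coding sequence was present in 21 of the 207 genes. Their median was -0.28, against -0.07 for the other 186. Every siHKlincR1 library was below every siNT library in 11 of the 21 (52.4%, against 11.9% of all genes tested) and above it in 2 (9.52%, against 10.1%). Of the 21, 2 were called lower, RRAGA and DSTYK (9.52%, against 0.356% of all genes tested). FZD1, the growth factor FGF2 (-0.50) and the membrane protein SHISA5 (-0.49) were other low genes of this group, and the lysosomal enzyme HEXA (0.17) was its highest. These groups were formed from sequence alone, overlap with one another and were not tested against each other.

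The genes of the silencing pathway itself did not pass the test in either direction. Of 23 genes of Argonaute loading, microRNA processing and deadenylation, 22 were measured, and 0 were called with or without the block, with a median of 0.03. At an adjusted p alone, the nuclease gene DROSHA, with 1 site, was at -0.34 (limma adjusted p = 0.0932, and 0.0463 with the block). AGO3, TNRC6C, DDX6 and XRN1 have 1 site too and were at 0.21, 0.01, -0.01 and 0.09. Among the 22 measured genes, 2 carry repeated sites. AGO2, the Argonaute that cuts fully paired targets, had 5.94, 5.77 and 6.57 RPKM with siNT and 6.08, 5.72 and 5.96 RPKM with siHKlincR1, which overlapped (log2 fold change -0.04, limma adjusted p = 0.817). DGCR8, the partner of DROSHA in microRNA processing, had 4.39, 4.31 and 5.40 RPKM against 3.64, 4.01 and 3.84 RPKM, without overlap, and did not pass (log2 fold change -0.28, limma adjusted p = 0.281).

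Near the limit of 0.5 RPKM, the lowest genes inside were the sodium-calcium exchanger SLC8A1, with means of 0.508 RPKM with siNT and 0.521 RPKM with siHKlincR1, and the DNA repair gene MGMT, with 0.490 and 0.559 RPKM on 42 to 72 reads per library. The nearest genes outside were NOX5 and EEPD1, with means of 0.404 and 0.378 RPKM over the 6 libraries.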

How the data were processed

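Strand-specific polyA libraries of H460 cells were sequenced as paired 75 bp reads. Per the labels and the study's methods, featureCounts (Rsubread) was run by the authors with Ensembl v74 genes on GRCh37 (hg19), and RPKM values were deposited, with base calling by CASAVA 1.8.2 in the submitters' processing notes. Which aligner was used, and whether the counts kept strand, is not given in the sources used here, so overlapping and near-identical genes are uncertain.

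All 31287 genes above 0 had RPKM values that gave whole reads to within 0.001 of a read, which gave the library totals and model lengths. The 15451 genes averaging 0.5 RPKM or more were fitted as log2(RPKM + 0.1) with limma 3.58.1 in R 4.3.3 (lmFit, eBayes with a trend, Benjamini-Hochberg adjustment, two-sided). Folds on this scale are understated for low genes, and p-values measure the spread between these libraries. Tested on simulated data, the fit for siHKlincR1 against siNT recovered 85% of 200 genes moved by a log2 change of 1.5 among 15451, with 4 false calls. Same-numbered libraries deviated together (correlations of 0.142, 0.137 and 0.266, all over 0.1), so the replicate number was taken as a pairing and also fitted as a block. Of the differently numbered pairs, siNT replicate 1 with siHKlincR1 replicate 2 was over 0.1 too, at 0.113, and the others were negative. The pairing is therefore uncertain for replicates 1 and 2.

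UTRs, sites and coordinates came from GENCODE v44 and the GRCh37 genome, in which 55538 of 57773 identifiers were found. No sequence is printed from chromosome 8, and some genes and families are not reported. Genes were named by rule: called without the block, the 5 largest falls called with it only, the 8 with most sites, the 5 closest spacings, the 5 highest levels, the 5 largest separated rises and those nearest the RPKM limit. Others illustrate classes or counts and were chosen after their values were seen. Roles were assigned from symbols. The members and lists were chosen with earlier results of these data known. Alternatives changed the pseudocount, filter, scaling, trend, block, site and UTR definition, used voom on reads, and left out each library.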

Additional observations from a re-analysis of the deposited data

How the results depend on the processing

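The count of 10 genes called lower was 6 with no filter on low RPKM, 4 with no mean-variance trend, 13 with voom on the reads and 15 with the replicate block, which pairs the libraries. Of all genes tested, these 4 fits called 0.109%, 0.104%, 0.563% and 0.809% lower in the same order, against 0.356% where the count was 10. A pseudocount of 1 left 7, without RUBCN, BICD2 and DSTYK, and called 0.291% of all genes tested lower. Without the filter LHFPL2, RRAGA, RUBCN and BICD2 were lost, and without the trend DNER, EFR3A, ELOVL5 and KLHL15 were left. The cause of these moves was not tested. All 10 were among the 15, and the block changed no other call that is not given beside its gene. Leaving out 1 library gave 2 to 14 genes, with fewer samples fitted: 2 without siNT replicate 1, siNT replicate 2 or siHKlincR1 replicate 1, 3 without siNT replicate 3, 5 without siHKlincR1 replicate 2 and 14 without siHKlincR1 replicate 3. ELOVL5 and DNER were called in each of these fits, and 0 of the 207 genes were called higher in any. In them 0.0453% to 2.03% of all genes tested were called lower, with the highest share without siHKlincR1 replicate 3. The median of the 207 genes ran from -0.0984 to -0.0661 without 1 library. Requiring an A opposite guide position 1 left 11 genes, with 1 called and a median of -0.34, and a site of guide positions 2 to 7 gave 2179 genes, with 23 called and a median of -0.0335. The longest annotated UTR gave 236 genes, with 10 called. The 169 genes whose counted model was at least as long as the UTR (added after seeing the data) held 10 called genes too. HKlincR1 ran from -2.71 to -2.43 without 1 library. Some genes near 0 changed sign without 1 library, namely AAK1 (-0.131 to 0.247), ITSN1 (-0.0102 to 0.0777), BANP (-0.139 to 0.138, and 0.0011 with voom), PAK3 (-0.0382 to 0.0672), SLC8A1 (-0.0398 to 0.128) and MGMT (-0.0063 to 0.311).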
